A study of Mus musculus with 2 samples.

Results

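Notch ligand genes and the Fringe genes that modify Notch receptors were followed across the cell classes of the neonatal mouse pituitary. The 8 genes were the Delta-like ligand genes Dll1, Dll3 and Dll4, the Jagged ligand genes Jag1 and Jag2, and the Fringe genes Lfng, Mfng and Rfng, found by symbol among the 31055 features counted in each of 2 single-cell RNA-seq libraries. Both libraries came from the pituitary of Sox9iresGFP/+ mice at postnatal day 3, without treatment, and held cells sorted for GFP, which these mice make from the Sox9 locus. One library was male and one female, each from 3 pooled pituitaries. All cells therefore carry the same reporter allele, and animals cannot be told apart within a library. Because GFP outlasts SOX9 protein, the sort holds stem cells together with cells that have recently left the stem cell state.

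Notch receptors sit on the cell surface and are activated by ligands on a neighbouring cell. The receptor is then cleaved, and its intracellular part joins RBPJ in the nucleus to switch on Hes and Hey genes, which hold back differentiation. A ligand can also bind receptors of its own cell and block them. Fringe enzymes add a sugar to the fucose on the receptor's extracellular repeats, which changes how well Delta-like and Jagged ligands activate it. In the developing pituitary, Notch signalling is known for keeping progenitors undifferentiated.

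The male library held 10410 cells after filtering and the female library 5711, with 105883748 and 62830305 unique molecular identifiers (UMIs, each marking 1 captured RNA molecule). Median depth was 8902 UMIs per male cell and 9789 per female cell, but 3627 male cells and 287 female cells had fewer than 5000 UMIs. At least 1 Sox2 UMI was found in 63.5% of male and 86.3% of female cells, and at least 1 Pitx1 UMI, a marker of pituitary epithelium, in 62.2% and 75.3%. The reporter itself gave a UMI in 11.2% and 10.9% of cells. Of the cell barcodes kept, 18 occurred in both libraries. Melanotroph and gonadotroph hormone RNA was found outside its own cells, more so in the male library: non-cycling Ednrb-positive stem-like cells held 188 and 49.0 UMIs of Pomc per 1000000 UMIs (CPM) and 57.0 and 9.81 CPM of Cga.

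Cells were placed in classes from the raw UMIs of marker genes, none of which was a ligand or a Fringe gene. Stem-like cells had at least 2 Sox2 UMIs and fewer than 2 Lef1 UMIs. They were divided into cells in S phase (538 male and 475 female), in G2/M phase (794 and 522), and non-cycling cells with a UMI of the endothelin receptor gene Ednrb (689 and 1287) or without it (1763 and 1519). Differentiating-like cells had at least 2 UMIs of Lef1, a transcription factor of the WNT pathway. The early class of these (44 and 35 cells) had a UMI of the cell cycle inhibitor Cdkn1a and none of Smoc2, Pou3f4 or Shh, and the late class (648 and 468) had a UMI of at least 1 of those 3 genes. Lef1-positive cells outside G2/M with a UMI of none of these genes (67 and 68) are called the other Lef1-positive class. Endocrine-like classes were gonadotroph precursor-like (671 and 103), maturing gonadotroph-like (222 and 17), POU1F1-lineage-like (674 and 266), which covers the line of somatotrophs, lactotrophs and thyrotrophs, and melanotroph-like cells (361 and 129). Mesenchymal-like cells, with UMIs of at least 4 of 8 stromal markers, numbered 708 and 302.

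Aldh1a2 and Foxl2, which had no part in the gates, went with the names of the classes for which they are given. No such gene is given here for the other classes. Aldh1a2 stood at 590.1 and 491 CPM in Ednrb-negative stem-like cells of the male and female library, against 85.8 and 76.2 CPM in the late differentiating-like class. Foxl2, a transcription factor of gonadotrophs, stood at 267 and 225 CPM in gonadotroph precursor-like cells and at 94.0 and 75.6 CPM in late differentiating-like cells. It was at 3.85 and 0.761 CPM in Ednrb-positive stem-like cells.

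Levels are given as CPM, the UMIs of a gene over all UMIs of the cells in a class, first for the male and then for the female library. A UMI counts a molecule near its 3′ end, so levels were not divided by transcript length. Over all cells, Dll1 was the most abundant of the 8 genes, with 37.6 and 41.3 CPM. Mfng followed in the male library (27.1 and 14.2 CPM), then Dll3 (20.7 and 17.2), Jag1 (19.3 and 20), Lfng (11.6 and 13.6), Jag2 (8.12 and 4.50) and Rfng (6.03 and 7.26). Dll4 was close to absent, with 112 male and 31 female UMIs.

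**Figure D1:**
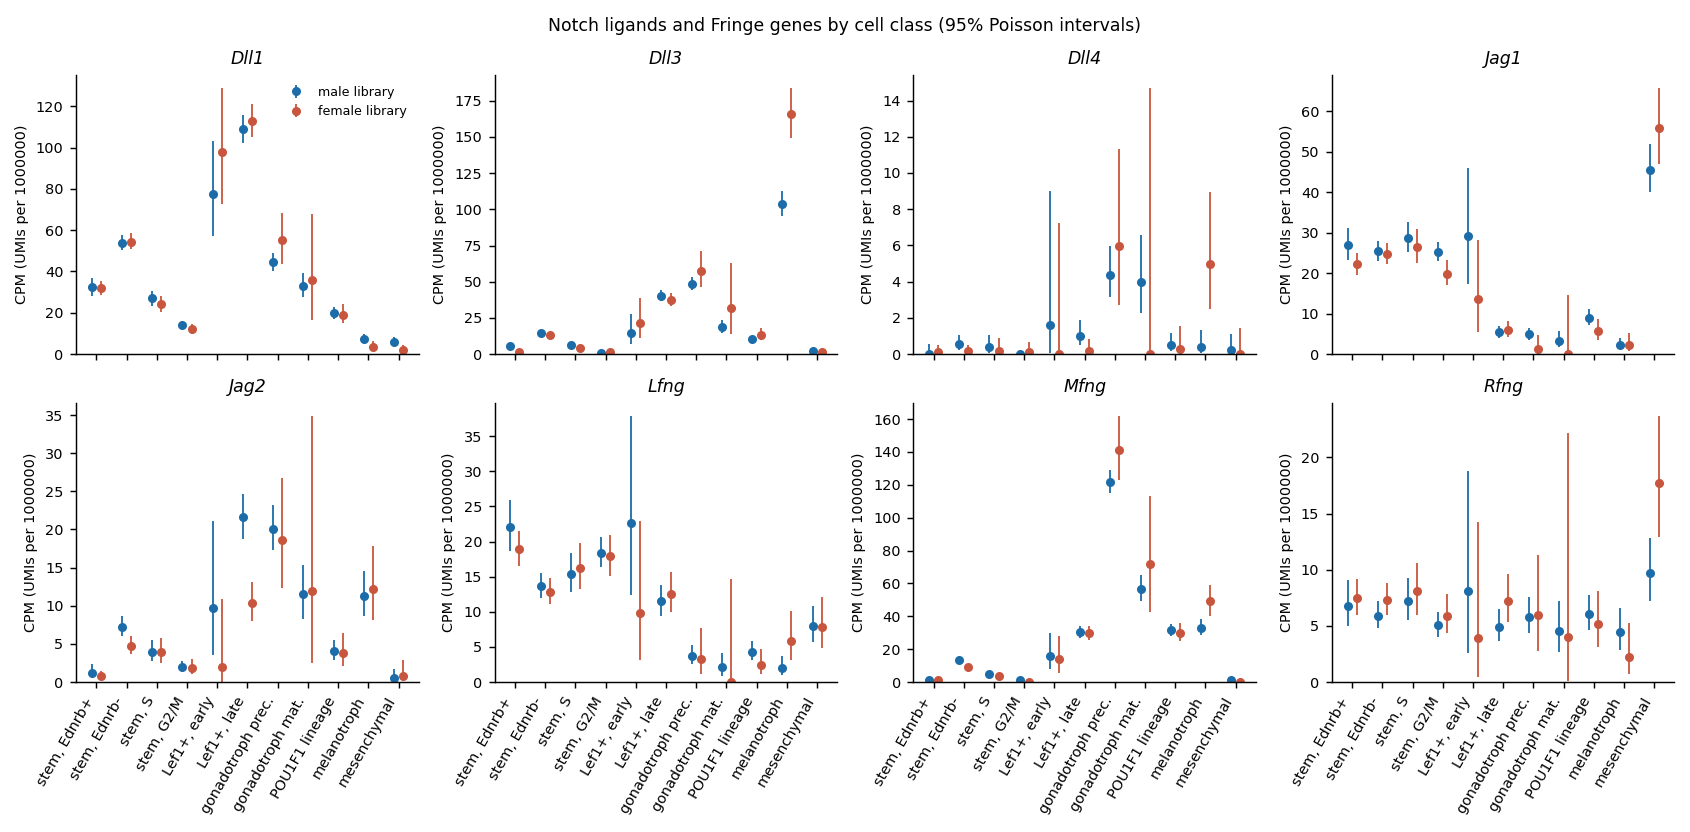
Level of each gene (y axis, CPM, own scale per panel) in 11 cell classes (x axis), with points for the male and female library and bars for exact 95% Poisson intervals, which cover counting error only. Dll1 is highest in early and late Lef1-positive cells, Dll3 in melanotroph-like, Mfng in gonadotroph precursor-like and Jag1 in mesenchymal-like cells. The other Lef1-positive class is not drawn.

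Dll1 (ENSMUSG00000014773, chr17:15367354-15376872 on the minus strand of mm10, where it overlaps A930024N18Rik) encodes a ligand that activates Notch receptors on neighbouring cells. It was highest in late differentiating-like cells, at 109 CPM in the male library (95% Poisson interval 102 to 116) and 113 CPM in the female library (105 to 121). Early differentiating-like cells had 77.5 and 98.0 CPM, with intervals that overlapped those of the late class. Next came Ednrb-negative stem-like cells (53.8 and 54.5), gonadotroph precursor-like (44.5 and 55.0) and maturing gonadotroph-like cells (33.0 and 35.8). Ednrb-positive stem-like cells had 32.3 and 31.8 CPM, S-phase cells 26.9 and 24.0, POU1F1-lineage-like cells 19.9 and 19.1, and G2/M cells 13.9 and 12. The libraries differed in this order only in that Ednrb-negative stem-like and gonadotroph precursor-like cells changed places. Neighbours in this order overlapped in their intervals in at least 1 library, except that POU1F1-lineage-like cells lay above G2/M cells in both. Melanotroph-like cells (7.24 and 3.17 CPM) and mesenchymal-like cells (5.82 and 1.96 CPM) were lowest, with intervals below those of the other 9 classes in both libraries. The other Lef1-positive class, left out of this order, had 58.9 and 68.6 CPM.

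Dll3 (ENSMUSG00000003436, chr7:28293553-28302238, minus strand) encodes a divergent Delta-like protein that is held mostly inside the cell and is known to oppose Notch signalling in the cell that makes it. Melanotroph-like cells stood apart from all other classes, with 104 CPM in the male (95.2 to 113) and 166 CPM in the female library (149 to 184). Gonadotroph precursor-like cells followed with 48.3 and 57.7 CPM and late differentiating-like cells with 40.1 and 37.5. The intervals of these classes overlapped in the male library only (43.9 to 53.0 and 36.3 to 44.3), and in the female library they did not (46.2 to 71.1 and 32.9 to 42.5). Maturing gonadotroph-like (18.4 and 31.8), early differentiating-like (14.5 and 21.6), Ednrb-negative stem-like (14.2 and 13.2) and POU1F1-lineage-like cells (10.1 and 13.4) formed a middle group. S-phase cells had 5.88 and 4.20 CPM, Ednrb-positive stem-like cells 5.33 and 1.52, mesenchymal-like cells 1.75 and 1.57, and G2/M cells 0.903 and 1.33. In G2/M cells Dll3 was thus no higher than in mesenchymal-like cells.

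Jag1 (ENSMUSG00000027276, chr2:137081456-137116644, minus strand), which encodes an activating ligand of the Jagged type, had a different distribution. Mesenchymal-like cells held 45.6 and 55.8 CPM, above every epithelial class in both libraries. The 4 stem-like classes lay together, from 25.3 to 28.7 CPM in the male and from 19.9 to 26.5 CPM in the female library. Levels in late differentiating-like (5.32 and 5.99), gonadotroph precursor-like (4.83 and 1.33), POU1F1-lineage-like (9.01 and 5.73) and melanotroph-like cells (2.23 and 2.27) were all below those of every stem-like class. Early differentiating-like cells, with 18 UMIs in the male library (29.1 CPM) and 7 in the female (13.7 CPM), could not be placed between the groups. Among the rare mural-like cells, 30 male cells held 32 Jag1 UMIs (141 CPM, 96.1 to 198) and 6 female cells held 3.

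Jag2 (ENSMUSG00000002799, chr12:112907819-112929776, minus strand) encodes the second Jagged ligand. It was distributed more like Dll3 than like Jag1. Gonadotroph precursor-like cells had 20.1 and 18.6 CPM, late differentiating-like cells 21.6 and 10.3, melanotroph-like cells 11.3 and 12.2, and maturing gonadotroph-like cells 11.5 and 11.9. Ednrb-negative stem-like cells had 7.20 and 4.72 CPM against 1.18 and 0.761 CPM in Ednrb-positive ones. Mesenchymal-like cells held 3 male and 2 female UMIs.

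Dll4 (ENSMUSG00000027314, chr2:119325784-119335962, plus strand) encodes a Delta-like ligand best known from sprouting blood vessels. Gonadotroph precursor-like cells held 40 of the 112 male UMIs (4.39 CPM) and 9 of the 31 female UMIs (5.97 CPM). Maturing gonadotroph-like cells held 15 UMIs in the male library and 0 in the female, where 3 counts would correspond to 11.9 CPM. Melanotroph-like cells had 2 male and 11 female UMIs, the latter more than any other class of that library. The 2 endothelial-like cells of each library held 1 and 2 Dll4 UMIs, too few cells for a level.

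Of the Fringe genes, Lfng (ENSMUSG00000029570, chr5:140607320-140615545, plus strand) followed the stem-like cells. It stood at 22.1 and 18.9 CPM in Ednrb-positive stem-like cells, 18.4 and 17.9 in G2/M cells, 15.4 and 16.3 in S-phase cells and 13.6 and 12.8 in Ednrb-negative stem-like cells. Late differentiating-like cells still had 11.5 and 12.6 CPM. In gonadotroph precursor-like (3.73 and 3.31), POU1F1-lineage-like (4.31 and 2.46) and melanotroph-like cells (2.04 and 5.90) it was lower than in any stem-like class.

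Mfng (ENSMUSG00000018169, chr15:78755882-78773475, minus strand) was the most abundant Fringe transcript of the endocrine-like classes and near absent from most stem-like ones. Gonadotroph precursor-like cells had 122 CPM in the male (115 to 129) and 141 CPM in the female library (123 to 162), above every other class. Maturing gonadotroph-like cells had 56.7 and 71.6 CPM, melanotroph-like cells 33.0 and 49.0, POU1F1-lineage-like cells 31.4 and 30.0, and late differentiating-like cells 30.2 and 29.6. Ednrb-negative stem-like cells, at 13.1 and 9.36 CPM, were above S-phase cells (5.16 and 3.39), Ednrb-positive cells (1.18 and 1.10) and G2/M cells (1.45 and 0.121). Rfng (ENSMUSG00000025158, chr11:120780746-120784207, minus strand) showed no such pattern. Its epithelial levels lay between 4.45 and 8.07 CPM in the male and between 2.27 and 8.07 CPM in the female library, and mesenchymal-like cells had 9.70 and 17.7 CPM.

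Since Dll1 was highest in late differentiating-like cells and Jag1 and Lfng were higher in stem-like than in endocrine-like cells, the bases before their annotated starts are shown, from RefSeq promoter windows on GRCm38.p6 and without bases that protein-coding exons cover. Capitals mark CANNTG (the E-box, bound by basic helix-loop-helix factors), TGGGAA (the core of the RBPJ site) or CTTTGA (the core of the TCF/LEF site) on either strand. The Dll1 bases are chr17:15376933-15377182 and end at the upstream of 2 annotated starts. The Jag1 bases are chr2:137116645-137116770 and the Lfng bases chr5:140607091-140607319, and Dll1 and Jag1 are read on the minus strand.
Dll1: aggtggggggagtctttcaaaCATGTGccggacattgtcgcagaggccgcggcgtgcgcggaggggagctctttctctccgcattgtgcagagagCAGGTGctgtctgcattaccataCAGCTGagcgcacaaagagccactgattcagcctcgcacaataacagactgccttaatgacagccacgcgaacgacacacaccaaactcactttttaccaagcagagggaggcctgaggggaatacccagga
Jag1: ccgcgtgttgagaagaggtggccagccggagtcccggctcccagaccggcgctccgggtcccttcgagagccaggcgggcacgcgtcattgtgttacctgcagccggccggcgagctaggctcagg
Lfng: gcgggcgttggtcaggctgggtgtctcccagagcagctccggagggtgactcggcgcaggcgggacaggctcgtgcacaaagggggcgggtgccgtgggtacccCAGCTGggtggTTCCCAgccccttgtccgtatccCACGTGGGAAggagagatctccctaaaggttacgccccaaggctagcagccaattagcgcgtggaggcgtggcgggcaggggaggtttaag
The Dll1 stretch holds 3 CANNTG matches, of which 1 is CAGCTG, and no TGGGAA or CTTTGA match. The Lfng stretch holds 2 CANNTG matches, of which 1 is CAGCTG, and 2 TGGGAA matches, 1 of them overlapping a CANNTG match. The Jag1 stretch, 126 bases that end 124 bases before the start, holds none of them. With the bases not shown, the full Jag1 window of 300 bases holds 1 CANNTG match, which is CAGCTG, and 1 CTTTGA match. The full Lfng window holds 4 CANNTG matches, of which 2 are CAGCTG. Over 32851 windows of 300 bases, 72.3% hold CANNTG, 16.3% CAGCTG, 25.6% TGGGAA and 16.0% CTTTGA, so that matches of this kind are common. A match describes letters and no binding was measured.

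Putting the ligands side by side showed how their mixture shifted between classes. The 5 ligands together reached 177 and 167 CPM in late differentiating-like cells and only 42.0 and 35.2 CPM in G2/M stem-like cells. In the late class Dll1 made up 61.5% of ligand UMIs in the male (exact 95% binomial interval 59.2 to 63.8) and 67.6% in the female library (64.8 to 70.4), and Jag1 3.01% and 3.59%. G2/M cells had the reverse balance, with 60.2% and 56.7% Jag1 against 33.1% and 34.0% Dll1. Melanotroph-like cells carried 83.0% and 88.0% Dll3, and mesenchymal-like cells 84.5% and 92.8% Jag1. In gonadotroph precursor-like cells Dll1 (36.4% and 39.7%) and Dll3 (39.6% and 41.6%) had nearly equal shares.

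The Fringe mixture turned over in a similar way. Lfng made up 73.4% and 68.8% of Fringe UMIs in Ednrb-positive and 73.9% and 74.7% in G2/M stem-like cells, where Mfng was 5.80% or less. In Ednrb-negative stem-like cells both were present, with 41.6% and 43.5% Lfng and 40.3% and 31.8% Mfng. Late differentiating-like cells had 64.8% and 59.9% Mfng, and gonadotroph precursor-like cells 92.7% and 93.8%. Rfng made up the largest share in mesenchymal-like cells, at 51.0% and 69.2%.

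**Figure D2:**
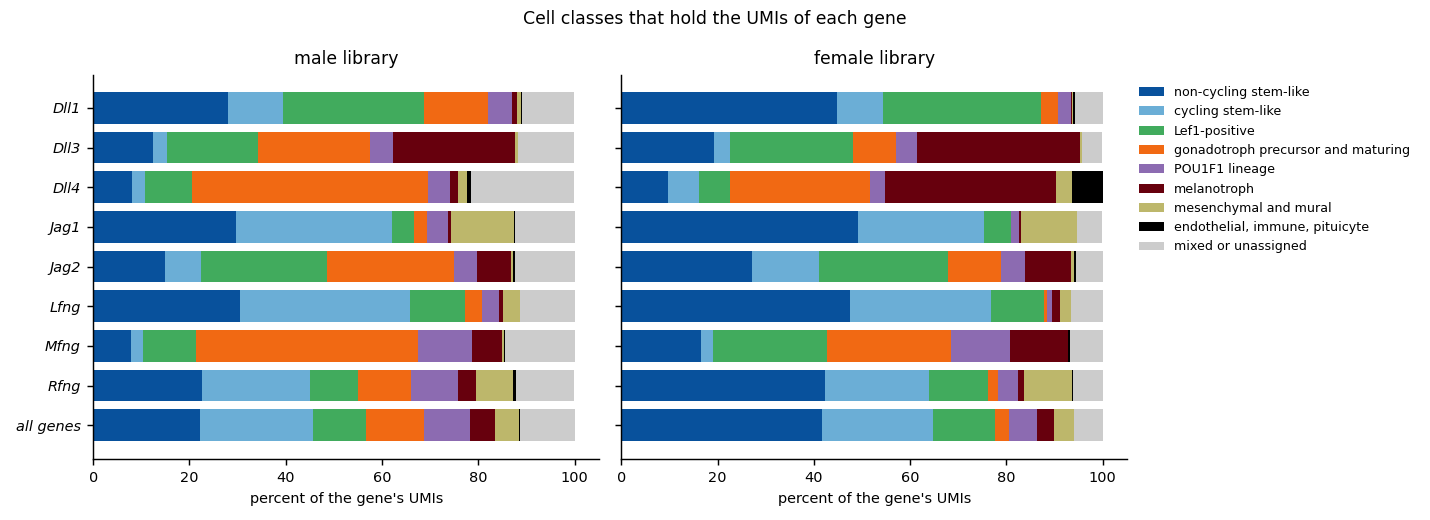
Percent of the UMIs of each gene (x axis) that came from each group of cell classes (colours), for the male and female library, with all genes together as the lowest bar. Compared with the lowest bar, melanotroph-like cells hold a large part of Dll3, gonadotroph-like cells of Mfng, Lef1-positive cells of Dll1 and stem-like cells of Jag1 and Lfng.

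The classes that supplied each transcript were uneven in size. Late differentiating-like cells gave 9.23% and 10.4% of all UMIs but 26.7% and 28.3% of Dll1 UMIs. Melanotroph-like cells gave 5.09% and 3.51% of all UMIs and 25.5% and 33.8% of Dll3 UMIs. For Mfng, gonadotroph precursor-like cells supplied 38.7% and 23.8%, from 8.60% and 2.40% of all UMIs. Cells with the most molecules sat in the same classes. Of the cells with 5 or more Dll3 UMIs, 39 of 53 male and 32 of 33 female cells were melanotroph-like, and of those with 5 or more Mfng UMIs, 53 of 79 and 10 of 11 were gonadotroph precursor-like. Cells with 5 or more Dll1 UMIs were spread more widely, with 38.8% and 38.0% in the late differentiating-like class.

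Shares of cells with a UMI were compared after drawing each cell down to 5000 UMIs, which leaves out shallower cells. At this depth 36.2% of male and 43.5% of female late differentiating-like cells had a Dll1 UMI (71.8% and 72.4% at full depth). The shares in mesenchymal-like cells, which serve as the background from free RNA, were 1.66% and 0.735% (3.25% and 1.66% at full depth). The median full depth was 14370 and 13141 UMIs in the late class and 7006 and 7594 UMIs in mesenchymal-like cells. A Dll3 UMI was found in 43.8% and 50.4% of thinned melanotroph-like cells and in 0.624% and 0.735% of mesenchymal-like cells. For Mfng the shares were 41.9% and 52.4% in gonadotroph precursor-like cells, against 0.208% and 0% in the mesenchyme. Jag1 was detected in 21.4% and 23.9% of mesenchymal-like and in 0.962% and 0.787% of melanotroph-like cells.

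To test differences between classes, UMIs were summed per class and library and fitted with the quasi-likelihood test of edgeR, with the library as a block, over 14834 genes and 11 classes. These 11 classes include the other Lef1-positive class and leave out maturing gonadotroph-like cells. There are 2 libraries, so each class has 2 sums, which differ in sex and animals. With the library as a block, p-values rest on how these sums depart from a library shift shared by all classes. That spread is pooled over the classes and does not measure variation between animals. Fold changes are on the log2 scale with their standard error (SE), and p-values were adjusted over all genes tested. All 8 genes passed the filter on low counts. Comparisons that name the same class share its cells.

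**Figure D3:**
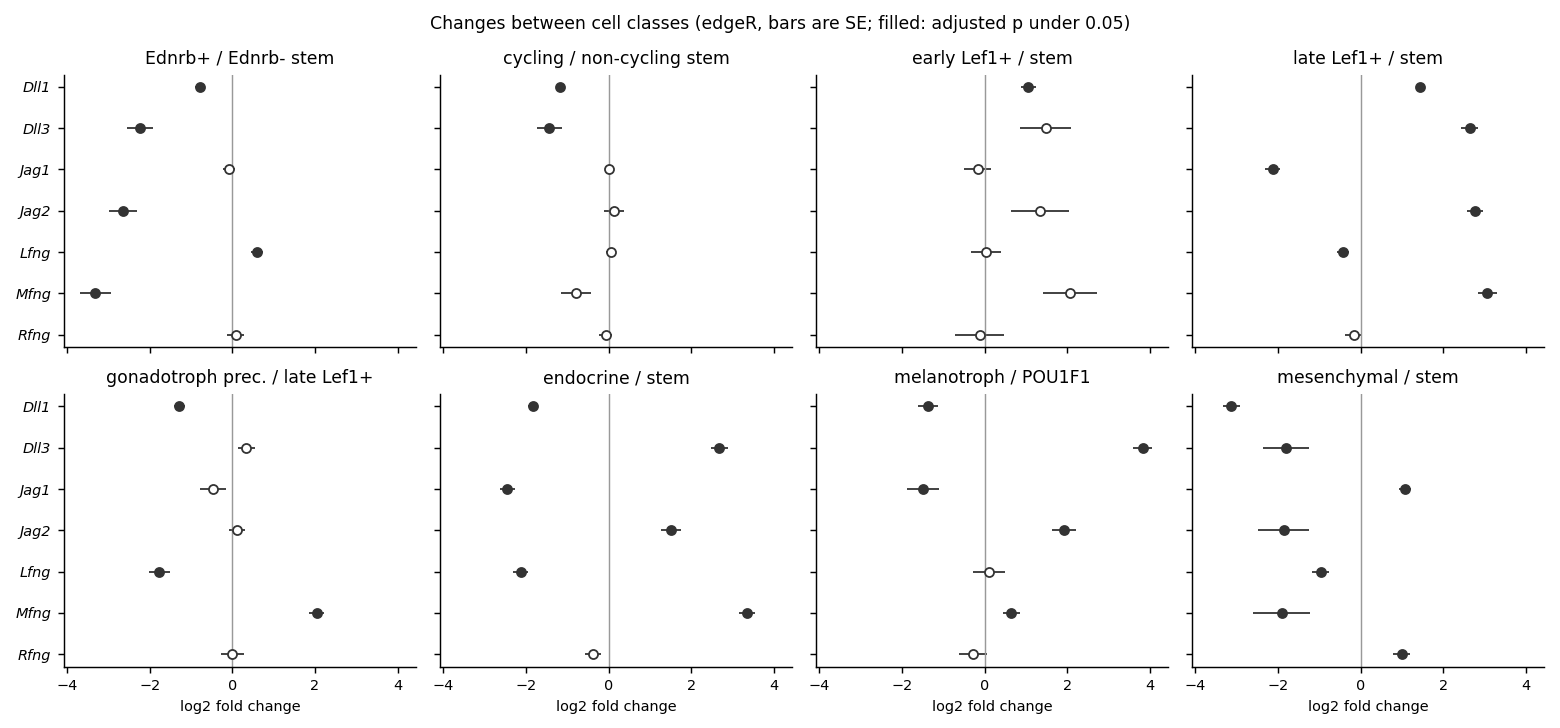
Log2 fold change of 7 genes (x axis; Dll4 is left out because of its low counts) in 8 comparisons of cell classes, named above each panel as first class over second class, with bars for the SE of the edgeR fit and filled points for an adjusted p under 0.05. Dll1, Dll3, Jag2 and Mfng lie to the right in late Lef1-positive cells and to the left in Ednrb-positive stem-like cells, while Jag1 lies to the left in late Lef1-positive and endocrine-like cells.

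The first question was where the genes sit among non-cycling stem-like cells, since Ednrb marks the stem cells lining the pituitary cleft. In Ednrb-positive cells 4 of the 8 genes were lower and 1 was higher than in Ednrb-negative cells, where 8.22% of all genes tested were lower and 11.4% higher. Mfng differed most, by -3.32 (SE 0.37, adjusted p = 3.0e-06), followed by Jag2 with -2.64 (SE 0.34, adjusted p = 4.9e-07) and Dll3 with -2.24 (SE 0.32, adjusted p = 1.1e-04). The Dll3 difference was -1.39 from the male library alone and -3.08 from the female library alone. Dll1 was lower by a smaller amount, -0.78 (SE 0.12, adjusted p = 2.1e-05). Lfng was higher, by 0.59 (SE 0.15, adjusted p = 0.00354), but by 0.16 with an adjusted p of 0.679 when cells were thinned to 5000 UMIs before the classes were formed. Jag1 (-0.08, SE 0.14) and Rfng (0.08, SE 0.20) did not pass the test. The median over the 8 genes was -1.51, and over all genes 0.02.

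Ednrb-negative cells were themselves not uniform. Those with 1 Lef1 UMI, 328 male and 275 female cells, had 85.5 and 94.5 CPM of Dll1 and 34.6 and 24.7 CPM of Dll3. Those with a Cdkn1a UMI had 87.3 and 95.8 CPM of Dll1, against 44.7 and 46.1 CPM in those without. Jag1 ran the other way, with 18.8 and 13.6 CPM in Cdkn1a-positive and 27.3 and 27.1 CPM in Cdkn1a-negative cells. These subsets were drawn after the values of the classes were known, and no test was made.

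Cycling stem-like cells, taken as the mean of the S and G2/M classes, were then compared with the mean of the non-cycling classes. Dll1 was lower by -1.18 (SE 0.10, adjusted p = 5.6e-11) and Dll3 by -1.43 (SE 0.31, adjusted p = 0.00238), so that 2 of 8 genes were lower, where 13.8% of all genes were, and none was higher, where 15.9% of all genes were. For Dll3 the male library gave -1.89 and the female library -0.90, and doubled gate minimums gave -2.37. Thinned cells gave -1.80 for Dll1. Jag1 (0.02, SE 0.10) and Lfng (0.05, SE 0.11) kept within 0.1 of no difference with small errors, while Mfng (-0.79, SE 0.36, adjusted p = 0.111) and Jag2 (0.13, SE 0.25) were estimated less closely. Nrarp, a Notch target that feeds back on the receptor, was higher in cycling cells by 0.97 (SE 0.09, adjusted p = 7.5e-10).

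At the first step out of the stem-like state, only Dll1 passed the test. Early differentiating-like cells had more Dll1 than the non-cycling stem-like classes, by 1.06 (SE 0.19, adjusted p = 9.2e-04), with 2.39% of all genes higher in this comparison and 2.74% lower. Mfng (2.06, SE 0.65, adjusted p = 0.0836), Dll3 (1.48, SE 0.62, adjusted p = 0.235) and Jag2 (1.34, SE 0.71, adjusted p = 0.354) had larger but uncertain estimates from 44 and 35 cells. In simulated counts of this comparison, 44% of genes changed 2-fold and 79% of genes changed 4-fold were recovered. Under 6 alternative settings 2 or 3 of the 8 genes were called in place of 1. From the early to the late class Jag1 fell by 1.96 on the log2 scale (SE 0.43, adjusted p = 0.00416), with 3.01% of all genes lower and 2.51% higher. The male library alone gave -2.47 and the female library alone -1.28.

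The larger late class made the change from the stem-like state clearer. Against non-cycling stem-like cells, 4 genes were higher and 2 lower, where 26.4% of all genes were higher and 25.6% lower. Mfng rose by 3.07 (SE 0.22, adjusted p = 1.2e-09), Jag2 by 2.77 (SE 0.20, adjusted p = 4.9e-13), Dll3 by 2.64 (SE 0.21, adjusted p = 2.1e-08) and Dll1 by 1.43 (SE 0.10, adjusted p = 2.9e-13). Jag1 fell by 2.13 (SE 0.18, adjusted p = 1.8e-11). Lfng fell by 0.43 (SE 0.15, adjusted p = 0.0135), but only by 0.10 (adjusted p = 0.849) in cells thinned to 5000 UMIs and by 0.72 with doubled gate minimums. The Dll4 estimate of 2.10 (SE 0.99, adjusted p = 0.0787) rested on 10 and 1 UMIs in the late class.

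Gonadotroph precursor-like cells were next compared with the late class. They had more Mfng, by 2.04 (SE 0.18, adjusted p = 5.6e-08), and more Dll4, by 2.76 (SE 0.68, adjusted p = 0.00247), with 17.4% of all genes higher. The Dll4 value was 2.05 from the male library alone and 4.77 from the female library alone, which had 1 UMI in the late class. Dll1 was lower by -1.29 (SE 0.13, adjusted p = 6.6e-09) and Lfng by -1.77 (SE 0.26, adjusted p = 3.1e-06), with 13.6% of all genes lower. Dll3 (0.34, SE 0.21, adjusted p = 0.246) and Jag2 (0.11, SE 0.19, adjusted p = 0.724) did not pass the test. Precursor-like cells that still had a Lef1 UMI held 62.0 and 82.2 CPM of Dll1 and 109 and 109 CPM of Mfng, and those without one 32.0 and 35.4 CPM of Dll1 and 131 and 164 CPM of Mfng.

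Maturing gonadotroph-like cells, with 17 cells in the female library, entered only a fit with a lower minimum of 10 cells per class, over 14912 genes. There Dll1 was lower than in the late differentiating-like class by -1.89 (SE 0.17, adjusted p = 9.5e-12), Lfng by -2.74 (SE 0.43, adjusted p = 1.5e-06), Dll3 by -1.12 (SE 0.29, adjusted p = 0.00436) and Jag2 by -0.83 (SE 0.27, adjusted p = 0.0122). Mfng was higher by 0.79 (SE 0.21, adjusted p = 0.00447). Dll4 was higher by 2.29 (SE 0.86, adjusted p = 0.036), from 15 UMIs in the male library only. Of all genes, 20.5% were higher and 17.1% lower.

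POU1F1-lineage-like and melanotroph-like cells were averaged as endocrine-like cells and set against the non-cycling stem-like classes. In this comparison 33.0% of all genes were higher and 27.2% lower, and 4 of the 8 genes were higher and 3 lower. Mfng rose by 3.35 (SE 0.20, adjusted p = 4.9e-11), Dll3 by 2.68 (SE 0.21, adjusted p = 1.2e-08), Jag2 by 1.52 (SE 0.24, adjusted p = 1.9e-06) and Dll4 by 2.60 (SE 0.90, adjusted p = 0.0151). Jag1 fell by 2.45 (SE 0.18, adjusted p = 4.5e-13), Lfng by 2.13 (SE 0.18, adjusted p = 4.3e-12) and Dll1 by 1.83 (SE 0.13, adjusted p = 4.5e-13). For Dll3 the male library gave 1.89 and the female library 3.38, and for Dll4 the male library alone gave 1.28. Dll4 rested on few UMIs, 5 and 1 in POU1F1-lineage-like and 2 and 11 in melanotroph-like cells. Ednrb-positive stem-like cells held 0 and 1 Dll4 UMIs and Ednrb-negative ones 9 and 2. In the male library Dll4 was at 0.49 and 0.371 CPM in these endocrine-like classes and at 0.54 CPM in Ednrb-negative stem-like cells. Over the alternatives with a test, the Dll1 value ran from -2.83 in thinned cells to -1.40 in the fit with 10 cells per class, and it passed in all 10. In the fit with 10 cells per class the endocrine-like mean also holds maturing gonadotroph-like cells, so that value compares a different set of classes. Scaling to total UMIs moved the median of all genes in this comparison by -0.11 and lost none of the 7 calls.

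The average hides a contrast between these endocrine-like classes. Melanotroph-like cells had more Dll3 than POU1F1-lineage-like cells, by 3.83 (SE 0.23, adjusted p = 2.6e-09) or 14.3-fold, and more Jag2, by 1.92 (SE 0.29, adjusted p = 4.1e-06), with 16.2% of all genes higher and 14.0% lower. They had less Dll1, by -1.37 (SE 0.25, adjusted p = 7.6e-05), and less Jag1, by -1.49 (SE 0.39, adjusted p = 0.00369), a call that was lost in thinned cells (-1.26). For Dll1 the female library alone gave -2.50, and cells thinned to 5000 UMIs gave -3.02. Mfng was higher by 0.65 (SE 0.21, adjusted p = 0.0267), but by 0.07 from the male library alone and by 0.33 (adjusted p = 0.282) when scaled to total UMIs, a scaling that moved the median of all genes by -0.33. Pomc alone made up 240616 and 127361 CPM of melanotroph-like cells.

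Within the POU1F1 line the levels differed with hormone content. Cells with Prl and Gh together under 1% of UMIs (583 male and 230 female cells) had 36.7 and 34.0 CPM of Mfng and 11.3 and 15.7 CPM of Dll3. Cells with Gh at 1% or more and Prl under 1% (74 and 34) had 4.86 and 3.85 CPM of Mfng and 2.77 and 0 CPM of Dll3. In the melanotroph-like class, cells with a UMI of Pax7, the pioneer factor of melanotrophs, held 111 and 181 CPM of Dll3, and those without 68.5 and 79.7 CPM. Dll1 was at 4.03 and 1.60 CPM in the Pax7-positive and at 22.8 and 12.3 CPM in the Pax7-negative cells. Depth moved with this split: the median was 21570 UMIs in 196 male cells with Pax7 and 1690 in 165 without, and 16268 in 104 female cells with and 12346 in 25 without. Its part in these values was not tested.

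Mesenchymal-like cells differed from stem-like cells in 7 of the 8 genes, with 32.0% of all genes higher and 26.4% lower. Jag1 was higher by 1.08 (SE 0.14, adjusted p = 4.2e-08) and Rfng by 0.99 (SE 0.21, adjusted p = 1.7e-04). Dll1 was lower by -3.13 (SE 0.21, adjusted p = 1.2e-13) and Lfng by -0.97 (SE 0.21, adjusted p = 1.4e-04). Dll3 (-1.81, SE 0.56, adjusted p = 0.012), Jag2 (-1.86, SE 0.62, adjusted p = 0.0109) and Mfng (-1.91, SE 0.69, adjusted p = 0.0252) were lower too, from at most 9 UMIs each per library. For Dll1 the male library gave -2.82 and the female library -4.27, and for Rfng the male library alone gave 0.62. The female library alone gave -0.99 for Jag2 and -4.06 for Mfng, and both calls were lost when every gate minimum was doubled (-0.85 and -1.29). Pitx1, the marker of pituitary epithelium, was at 14.7 and 2.36 CPM in mesenchymal-like cells against 217 and 225 CPM in Ednrb-negative stem-like cells.

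**Figure D4:**
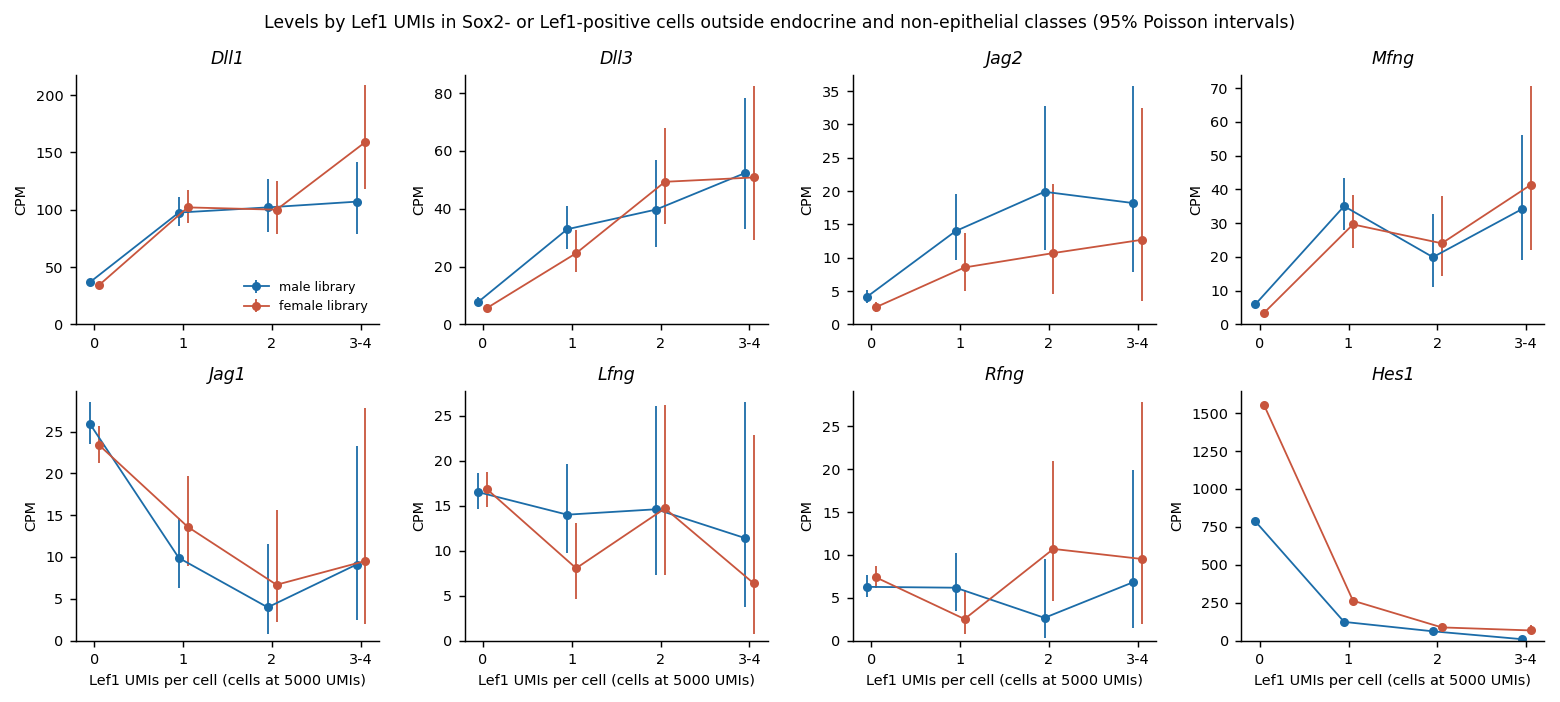
Level (y axis, CPM) of 7 genes and of the Notch target Hes1 by the number of Lef1 UMIs per cell (x axis) in cells thinned to 5000 UMIs with at least 1 Sox2 or Lef1 UMI, outside the endocrine and non-epithelial classes, with points for each library and bars for exact 95% Poisson intervals. Dll1, Dll3 and Mfng are higher from 1 Lef1 UMI on, while Jag1 and Hes1 are lower.

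Levels were also read along the number of Lef1 UMIs. Lef1 also divides the stem-like from the differentiating-like classes, so this sorts many of the same cells on the same gene. Every cell without a Lef1 UMI had a Sox2 UMI by selection. Among cells with 1 Lef1 UMI, 78.8% of male and 82.7% of female cells had a Sox2 UMI. S-phase and G2/M stem-like cells, where Dll1 was lower than in non-cycling ones, were kept in. The part of the cycling cells or of the Sox2 selection in the levels was not tested. From 0 to 1 Lef1 UMI, Dll1 went from 36.8 to 97.5 CPM in the male and from 34.1 to 102 CPM in the female library, and it stood at 107 and 159 CPM at 3 to 4 Lef1 UMIs. Dll3 went from 7.81 to 32.9 CPM and from 5.72 to 24.6 CPM over the first step, and Mfng from 5.90 to 35.0 and from 3.44 to 29.6 CPM. Jag1 went down at that step, from 25.9 to 9.88 CPM in the male and from 23.4 to 13.6 CPM in the female library. Hes1 went from 787 to 123 CPM and from 1552 to 263 CPM. Lfng, at 16.5 and 16.8 CPM without Lef1, stood at 14.0 and 8.04 CPM with 1 Lef1 UMI. The cell numbers fell from 3252 male and 3600 female cells without a Lef1 UMI to 88 and 63 cells with 3 to 4, so the right end of each curve is the least certain.

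Receptors and targets of the pathway were read from a list of 35 further Notch genes, of which 33 could be tested. In late differentiating-like cells 8 of the 33 were higher and 15 lower than in stem-like cells, where 26.4% of all genes were higher and 25.6% lower. The list median was -0.23 and that of all genes 0.02. The lower genes included the receptors Notch1 (-1.95, SE 0.16), Notch2 (-3.26, SE 0.30) and Notch3 (-2.46, SE 0.22), and the targets Hes1 (-4.38, SE 0.46), Hey1 (-2.77, SE 0.15), Hey2 (-3.34, SE 0.23) and Nrarp (-3.21, SE 0.20). Hes1 stood at 983 and 1880 CPM in Ednrb-positive and at 551 and 1032 CPM in Ednrb-negative stem-like cells, against 36.9 and 62.7 CPM in the late class. The higher genes included Hes6 (2.46, SE 0.22), which is known to counteract HES1, the ubiquitin ligase genes Mib1 (0.49, SE 0.10) and Neurl1a (0.98, SE 0.14), which prepare ligands for endocytosis, Rbpj (0.43, SE 0.07), and Dner (2.43, SE 0.10), a transmembrane relative of the ligands. All of these had an adjusted p of 0.00014 or less.

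Fewer genes of the list, as of all genes, were called within the stem-like cells. Between Ednrb-positive and Ednrb-negative cells 3 of the 33 were higher and 4 lower (11.4% and 8.22% of all genes), among them Notch1 (0.74, SE 0.13, adjusted p = 7.8e-05) and Notch3 (0.59, SE 0.16, adjusted p = 0.00628) on the side of the Ednrb-positive cells and Hes6 (-2.12, SE 0.28, adjusted p = 0.00033) on the other. Cycling cells had 5 higher and 4 lower (15.9% and 13.8% of all genes). In endocrine-like cells 8 were higher and 14 lower (33.0% and 27.2% of all genes), and in mesenchymal-like cells 9 and 15 (32.0% and 26.4%). Gonadotroph precursor-like cells differed from the late class in 7 of these genes, 4 higher and 3 lower (17.4% and 13.6% of all genes). The higher ones were Mib2, Neurl1a, Aph1a and Numbl, and the lower ones Notch1, Hes5 and Psen2. Notch2 (35.2 and 6.63 CPM) and Hes1 (78.7 and 16.6 CPM) were not called. Hes1 lay above its level in the late class in the male library and below it in the female library. Against the late class, maturing gonadotroph-like cells had Hes1, Nrarp, Aph1a and Maml3 higher and Hes5, Hes6, Psen2 and Rbpj lower. Those were 4 and 4 of 34 genes tested in the fit with 10 cells per class (20.5% and 17.1% of all genes). Melanotroph-like cells had 7 higher and 7 lower than POU1F1-lineage-like cells (16.2% and 14.0% of all genes), with Dner higher by 2.24 (SE 0.12, adjusted p = 2.5e-16) and Nrarp lower by -1.75 (SE 0.31, adjusted p = 3.6e-05).

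**Figure D5:**
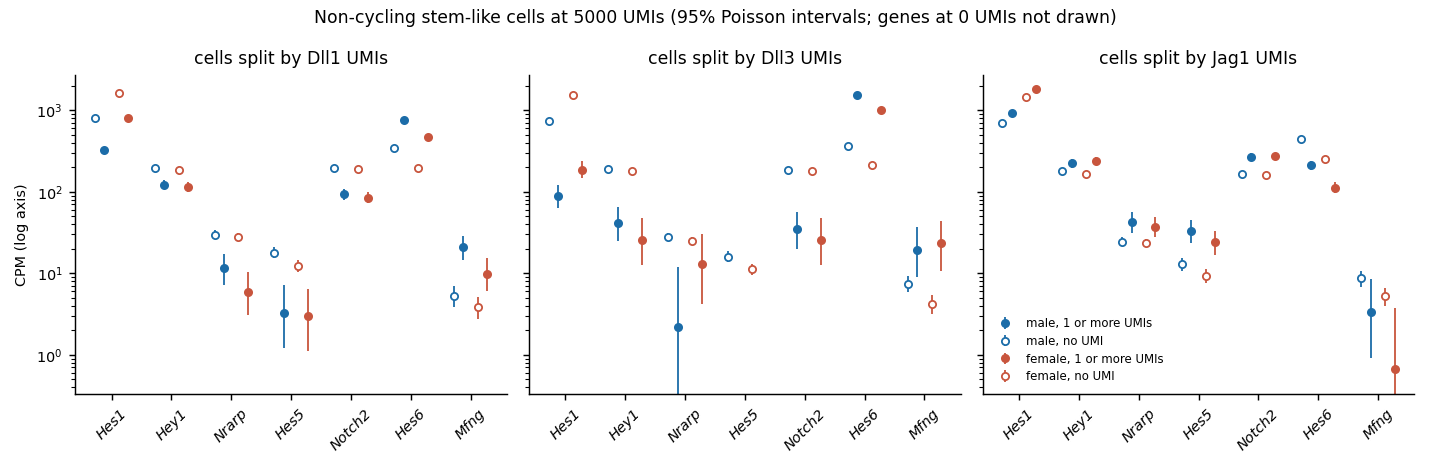
Levels (y axis, CPM, log axis) of Notch targets, Notch2, Hes6 and Mfng in non-cycling stem-like cells thinned to 5000 UMIs, for cells with at least 1 UMI (filled) or no UMI (open) of Dll1, Dll3 or Jag1, in each library, with exact 95% Poisson intervals. Hes1 is lower in Dll1- and Dll3-positive cells and higher in Jag1-positive cells, and Hes6 shows the reverse.

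Within non-cycling stem-like cells, ligand-positive and ligand-negative cells were set side by side. Cells are not replicates, so these are descriptions of each library. Ednrb-positive and Ednrb-negative cells were pooled, and the part of that in the values was not tested. Among 366 male and 402 female cells with a Dll1 UMI, Hes1 stood at 324 and 802 CPM, against 801 and 1618 CPM in 1701 and 2306 cells without. Notch2 was at 93.4 and 85.1 CPM with and 195 and 189.6 CPM without Dll1, and Nrarp at 11.5 and 5.97 CPM with and 29.9 and 28.3 CPM without. Hes6 was higher with Dll1, at 772 and 473 CPM against 341 and 194 CPM. The contrast was wider for Dll3, where 92 male and 77 female positive cells had 89.1 and 187 CPM of Hes1 against 746 and 1535 CPM. Jag1-positive cells (240 and 299) had the opposite profile, with 916 and 1826 CPM of Hes1 against 691 and 1456, 269 and 275 CPM of Notch2 against 165 and 162, and 212 and 113 CPM of Hes6 against 444 and 250.2.

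The detection of pairs of these genes in the same stem-like cell was counted as well. Ednrb-positive and Ednrb-negative cells, which differ in Dll1, Dll3 and Mfng, were pooled for this. The part of that pooling in the counts was not tested. A Dll1 and a Dll3 UMI were found together in 36 male and 24 female cells, where the product of their shares gives 16.3 and 11.4 cells. Dll1 and Mfng were found together in 31 and 19 cells, against 13.1 and 8.46. Dll1 and Jag1 shared 33 and 23 cells, fewer than the 42.5 and 44.4 that the shares give. In the late class, Dll1 and Dll3 shared 39 and 39 cells against 43.4 and 35.6, and Dll1 and Mfng 29 and 23 against 33.3 and 30.9. Dll3 and Mfng shared 17 and 7 late cells against 17.3 and 12.5. No test was made of any of these counts.

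Over the 22 class and library sums of the fit, the genes whose log2 levels most resembled each ligand or Fringe were sought among 10774 genes. Dll1 was most like Slc27a2 (Pearson r = 0.960), Calml4 (0.954) and Cmya5 (0.943), all highest in the late differentiating-like class. Dll3 was most like Dner (0.967), A930009A15Rik (0.954) and Amph (0.949), all highest in melanotroph-like cells. Mfng was most like Cxcl14 (0.968), Crmp1 (0.967) and Gdap1 (0.963), and Jag1 was most like Gxylt2 (0.965), Gja1 (0.957) and Bmp2 (0.957). Jag2 (Gm48893, 0.919) and Lfng (Eif1ax, 0.905) had less close neighbours. Among themselves, Dll3, Jag2 and Mfng were related with r from 0.854 to 0.889, Jag1 was opposite to Dll3 (-0.813) and Mfng (-0.823), and Dll1 lay apart from Jag1 (-0.082) and Dll3 (0.256). The points share 2 libraries, so these values describe the classes and carry no test.

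Male and female levels were compared by their counting intervals alone, since there is 1 library per sex and no test between the sexes can be made. Of 96 pairs of a gene and a class, 75 had more than 3 UMIs in both libraries, and in 69 of these the limits of the ratio included equal levels. The 3 higher in the male library were Dll3 in Ednrb-positive stem-like cells (ratio 3.51, limits 1.55 to 8.18), Jag2 in late differentiating-like cells (2.10, 1.44 to 3.10) and Mfng in Ednrb-negative stem-like cells (1.40, 1.04 to 1.91). The 3 higher in the female library were Dll3 in melanotroph-like cells (0.627, 0.517 to 0.758), Mfng in melanotroph-like cells (0.673, 0.481 to 0.953) and Rfng in mesenchymal-like cells (0.548, 0.304 to 0.992). Depth moved with 2 of these: 153 of 361 male melanotroph-like cells had fewer than 5000 UMIs, against 2 of 129 female ones. Free Pomc and Cga RNA in Ednrb-positive stem-like cells was higher in the male library, as was Dll3, and the part of either in these ratios was not tested.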

How the data were processed

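Cells sorted for GFP from Sox9iresGFP/+ pituitaries at postnatal day 3 were measured as 1 male and 1 female droplet library. The authors aligned reads to mm10 with the eGFP sequence added and deposited raw UMI counts per gene and cell from Cell Ranger 3.0.2. The study's methods give v2 chemistry for the kits, while the labels name v2.0 and v3 side by side. The submitters' processing notes also name R 3.6.0 and Seurat.

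Cells with under 50 genes, or with a mitochondrial share over 3 SD above the library mean, were removed, which left 10410 male and 5711 female cells. No doublets were removed in the main setting. The 8 genes, the cell classes and the 35-gene pathway list were chosen with earlier results of these data known. Gates on marker UMIs formed the classes. Cells that met gates of more than 1 type (302 male and 53 female cells) and cells that met none (2869 and 446) were left out. Of the unplaced male cells the median had 1236 UMIs.

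Counts were summed per class and library and fitted with edgeR 4.0.16 in R 4.3.3 (TMM scaling, filterByExpr, quasi-likelihood test, library as a block, 10 residual degrees of freedom), for classes with at least 20 cells in both libraries. Adjusted p-values are Benjamini-Hochberg values over all genes tested, and a call is an adjusted p under 0.05. The endocrine-like mean was planned to include maturing gonadotroph-like cells, which had 17 female cells and were left out, except in the fit with 10 cells per class. The comparisons of the late class with stem-like cells, of gonadotroph precursor-like with late cells and of melanotroph-like with POU1F1-lineage-like cells, and the fit with 10 cells per class, were added after the data were seen. Named genes were all 8 genes, called genes of the pathway list, and for each gene at 10 CPM or more in some class of both libraries the 3 genes with the highest Pearson r of log2(CPM + 1). Intervals of CPM are exact Poisson and those of shares exact binomial at 95%, and cover counting error only. Limits of a male to female ratio are the lower bound of one CPM over the upper bound of the other. Positions come from GENCODE vM21. RefSeq promoter windows matched 7 of the 8 genes. The fit was tested on simulated counts with 200 changed genes. Alternatives used DESeq2 1.42.0, total UMIs, no filter, only the classes compared, Scrublet doublets removed (scanpy 1.11.5), cells with at least 1000 genes, cells thinned to 5000 UMIs, doubled gate minimums, 1 Lef1 UMI in the gate, and each library left out.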

Additional observations from a re-analysis of the deposited data

How the results depend on the processing

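The comparison of maturing gonadotroph-like with late cells had no alternative run, because every other run needed at least 20 cells in both libraries. In the other comparisons, no gene that passed the test changed direction under any alternative run. Of the values recomputed for such genes, 403 were the same, 36 moved and 10 kept their direction without passing. Those 10 were Lfng in Ednrb-positive stem-like and in late cells (thinned), Jag1 in melanotroph-like cells (thinned), Jag2 (thinned, doubled gates) and Mfng (doubled gates) in mesenchymal-like cells, and Mfng in melanotroph-like cells (total UMIs, DESeq2, thinned, doubled gates). The number of the 8 genes called in early against stem-like cells was 1, against 2 with 10 cells per class or doublets removed and 3 with no filter, DESeq2, only the classes compared or 1 Lef1 UMI in the gate. For late against early cells it was 1, against 3 with no filter and 4 with only the classes compared or 1 Lef1 UMI. For melanotroph-like against POU1F1-lineage-like cells it was 5, against 3 with thinned cells. The cause was not tested. In the runs with both libraries, differences that had not passed changed sign as follows. Changes of sign of such differences when a library was left out are not listed. In cycling cells, Jag1 was at -0.01 (doublets removed) and -0.05 (1 Lef1 UMI), Rfng at 0.33 (thinned) and 0.06 (doubled gates), and Dll4, Lfng and Jag2 at 0.12, -0.07 and -0.14 (doubled gates). In early cells, Lfng was at -0.07 (no filter) and -0.01 (1 Lef1 UMI) and Rfng at 0.13 (1 Lef1 UMI). In late against early cells, Rfng was at 0.04 (doublets removed) and Dll4 at 0.43 (1 Lef1 UMI). In mesenchymal-like cells, Dll4 was at 0.02 (DESeq2, at least 1000 genes) and 0.77 (doubled gates). In late against stem-like cells, Rfng was at 0.03 (thinned). In gonadotroph precursor-like cells, Rfng was at -0.03, -0.06, -0.01, -0.01, -0.08 and -0.09 (10 cells per class, no filter, DESeq2, only the classes compared, doublets removed, doubled gates), Dll3 at -0.27 (thinned) and Jag2 at -0.24 (doubled gates). In melanotroph-like cells, Lfng was at -0.24 (total UMIs). The early class had too few cells for the thinned and doubled settings. Without a library the fit gives values and no test. No paired analysis was possible because each sex has 1 library, and the library is a block in every fit.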
